A study of Mus musculus with 12 samples.

Results

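The genes described here are 48 members of the BMP and TGF-beta signalling pathway, out of 32285 genes counted in single cells of the fetal mouse gonad. They were taken as a list of symbols by role in the pathway, drawn up with earlier results of these data known: 10 BMP ligands, 7 GDF ligands, 3 TGF-beta ligands, Nodal with Lefty1 and Lefty2, 7 receptors, 5 receptor Smads, the common Smad, 2 inhibitory Smads, 4 Id genes and 6 antagonists. All 48 symbols were found. Gonads were dissected at E12 from XX and XY embryos of 3 genotypes and profiled by droplet sequencing of the 3' ends of transcripts, in which each molecule carries a unique molecular identifier (UMI). Each of the 6 groups had 2 libraries, 12 in all. The genotypes concern Wt1, which encodes a zinc finger protein whose splice variants hold (+KTS) or lack (-KTS) the amino acids KTS between the last zinc fingers. WT embryos make both variants, -KTS KO embryos are homozygous for a germline allele that does not make the -KTS variant, and +KTS KO embryos are homozygous for the Frasier allele, which does not make the +KTS variant and makes more of -KTS. Both mutations are present in every cell of the embryo, germ cells included. The labels write these genotypes as minusKTS KO and plusKTS KO. The lines were kept on a mixed B6CBAF1/JRj background. By the study's supplement, both gonads of an embryo were taken and, for -KTS KO samples, gonads of several embryos were pooled, so the spread between libraries need not be the same quantity in all groups.

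BMPs, GDFs, Nodal and TGF-betas are secreted dimers that bring together type I and type II serine/threonine kinase receptors at the cell surface. Receptors for most BMPs phosphorylate SMAD1, SMAD5 and SMAD9, receptors for TGF-beta and Nodal phosphorylate SMAD2 and SMAD3, and both sets enter the nucleus with SMAD4. The Id genes are classic BMP targets, SMAD6 and SMAD7 are inhibitors that the pathway itself induces, and noggin, chordin, gremlin and the pseudoreceptor BAMBI act as antagonists. In the fetal ovary BMP2 is a signal of the supporting lineage, and in the fetal testis Nodal and its feedback inhibitors of the Lefty family are known from male germ cells.

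Of 103730 barcodes, 78674 were retained as cells. Clusters were named from marker genes that include no member, and the members were also left out of the genes used for clustering. UMIs were then summed per library over gonadal somatic cells (67524 cells, 57925805 to 100118982 UMIs per library) and over germ cells (7344 cells, 147 to 1444 cells and 8376969 to 39751816 UMIs per library). Gonadal somatic cells comprised interstitial-like, coelomic epithelial-like, pre-supporting-like, pre-granulosa-like, Sertoli-like and unnamed clusters. Every unnamed cluster was counted here, whether or not its cells came from the gonad. Summed over 8 germ cell markers, germ cell sums reached 6422 to 9862 CPM (counts scaled to a common library size) and gonadal somatic sums 14.6 to 94.5 CPM. The sex-linked genes fitted the label in 12 of 12 libraries. Wt1 itself was at 171 to 305 CPM in gonadal somatic sums and 1.64 to 13.8 CPM in germ cell sums, and 3' counts cannot tell its splice variants apart. In such sums, fewer cells of a type and less RNA per cell cannot be told apart.

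Some libraries stood apart. XY +KTS KO replicate 1 held 4187 of the 4321 cells of a pre-granulosa-like cluster led by Cst12, Btg2, Fos and Fosb, and its 12 immediate early genes summed to 3034 CPM against 459 to 974 CPM in the other 11 libraries. An unnamed cluster led by Cyp11a1, Inha and Pnmt held 3173 and 1383 cells of the XX +KTS KO libraries. It held 2400 cells of XY +KTS KO replicate 2 but only 55 of XY +KTS KO replicate 1. XY +KTS KO replicate 2 held 539 of the 548 cells of a cluster led by Hoxc10 and Hoxa10. It also held all 92 cells of an unnamed cluster led by Actc1, Myog and Mylpf. Of the 46 cells of another unnamed cluster, led by Crabp1, Fibin and Foxd1, it held 40. Both entered its gonadal somatic sum, and whether their cells are gonadal was not tested. XX -KTS KO replicate 2 held 1064 gonadal cells and 775 germ cells of 2 clusters with few UMIs per cell. Classes drew on different clusters by genotype, and the interstitial-like class of WT also by sex. Interstitial-like cells lay in clusters 6, 9 and 14 in -KTS KO and mostly in clusters 4, 7 and 22 in WT and +KTS KO. Cluster 4, with Pimreg, Psrc1, Plk1 and Cdk1 among its leading genes, held 1713 of 1969 and 809 of 1074 interstitial-like cells of XY WT. In XX WT it held 635 of 1220 and 280 of 1069. The class also took in the cluster led by Hoxc10 in XY +KTS KO replicate 2 (539 of 1775 cells), and 133 cells of cluster 6 and 39 of cluster 14 in XX +KTS KO replicate 2. Pre-supporting-like cells lay in cluster 13 in -KTS KO and in clusters 15, 18 and 27 elsewhere. Coelomic epithelial-like cells lay in cluster 10 in -KTS KO, mostly in cluster 3 in WT and in clusters 8 and 11 in +KTS KO. Values within a class therefore compare cells of different clusters. For members, calls of XY +KTS KO against XY WT are also given without each XY +KTS KO library. Libraries shared 3 to 35 cell barcodes per pair. The test throughout was edgeR's quasi-likelihood test on the sums, fitted over all genes with Benjamini-Hochberg adjustment, and a member was counted as called at an adjusted p under 0.05. Its p-values measure the spread between these libraries.

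The upstream sequence of 4 members is shown because they mark the results that follow: Smad9, Smad6 and Gdf10 were higher in -KTS KO gonads of both sexes, and most Nodal UMIs lay in germ cells. The sequences are the 250 bases before the annotated start in RefSeq (GRCm38.p6), 5′ to 3′ on the gene's strand, at chr3:54755332-54755581 (plus strand), chr9:64022060-64022309 (minus strand), chr14:33923337-33923586 (plus strand) and chr10:61417722-61417971 (plus strand). Capitals mark GGCGCC, a motif bound by BMP-type Smads, and GTCT (AGAC on the other strand), the Smad box.
Smad9: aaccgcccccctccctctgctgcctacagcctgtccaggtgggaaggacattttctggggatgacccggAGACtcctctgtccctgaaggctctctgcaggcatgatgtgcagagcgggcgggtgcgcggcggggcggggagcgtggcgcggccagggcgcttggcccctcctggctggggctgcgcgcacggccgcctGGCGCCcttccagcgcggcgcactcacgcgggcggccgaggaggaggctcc
Smad6: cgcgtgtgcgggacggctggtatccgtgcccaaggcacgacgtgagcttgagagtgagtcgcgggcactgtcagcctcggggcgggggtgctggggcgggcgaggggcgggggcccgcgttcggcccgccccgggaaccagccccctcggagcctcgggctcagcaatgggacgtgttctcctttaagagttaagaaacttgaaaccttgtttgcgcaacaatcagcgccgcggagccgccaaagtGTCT
Gdf10: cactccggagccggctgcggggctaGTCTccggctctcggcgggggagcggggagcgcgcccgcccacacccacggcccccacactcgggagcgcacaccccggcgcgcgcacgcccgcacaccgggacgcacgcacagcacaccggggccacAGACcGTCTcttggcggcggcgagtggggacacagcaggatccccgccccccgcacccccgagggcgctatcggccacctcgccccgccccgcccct
Nodal: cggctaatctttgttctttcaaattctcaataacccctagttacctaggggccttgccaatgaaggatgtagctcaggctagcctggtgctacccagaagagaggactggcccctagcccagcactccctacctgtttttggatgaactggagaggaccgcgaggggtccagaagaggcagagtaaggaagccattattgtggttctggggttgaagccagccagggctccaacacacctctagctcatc

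Smad9 held 1 GGCGCC and 1 Smad box, Smad6 held 1 Smad box, Gdf10 held 3 Smad boxes and Nodal held neither motif in this window. Over windows of the same length before all annotated starts, searched on both strands, GGCGCC occurred in 9.59% of 32851 and the Smad box in 82.9%. Over the 38 windows of the 32 members with an entry, GGCGCC occurred in 10 (26.3%) and the Smad box in 30 (78.9%). The WT1-type motif GCGTGGGNG occurred in 2 member windows (Tgfb1 and Tgfbr2, 5.26%) against 1.65% of all windows. These matches are descriptions of letters, not binding sites, and none of them was tested. No entry was at hand for Bmp2, Bmp3, Bmp7, Gdf5, Gdf6, Gdf9, Tgfb3, Lefty1, Lefty2, Acvrl1, Smad2, Smad4, Smad7, Id1, Nog and Bambi.

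In gonadal somatic sums, 42 of the 48 members passed the filter on low counts. Bmp3, Bmp8b, Bmp10, Bmp15, Gdf7 and Grem1 did not, with at most 12 UMIs in any library. The filter keeps a gene that reaches its minimum in 2 libraries, so a member can pass through a single group. Of the rest, 21 members were called in at least 1 of 5 comparisons and 21 in none.

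The XX -KTS KO libraries were set against XX WT to ask how the pathway in the prospective ovary responds to loss of the -KTS variant. The ligands Gdf6, Gdf10 and Tgfb3, the Smads Smad6 and Smad9, the target genes Id2 and Id3 and the antagonist Nog were higher, and Bmp7 was lower. Lefty2 was also higher, at under 1 CPM in every somatic sum. In all, 10 of 42 members were called (23.8%), 9 higher and 1 lower, where 16.6% of all genes tested were called (6.91% higher and 9.7% lower). The median log2 fold change was 0.40 against 0.01 over all genes. No receptor was called. The makeup of the sums moved as well: in XX -KTS KO the 6 pre-granulosa markers summed to 136 and 254 CPM against 952 and 943 CPM in XX WT, the 5 pre-supporting markers to 353 and 385 CPM against 1403 and 1150 CPM, and the 7 interstitial markers to 819 and 612 CPM against 421 and 395 CPM. The part of cell makeup in these calls was not tested, and values within cell classes are given below with the genes.

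Loss of the -KTS variant in XY gonads moved the same 8 members upward: Gdf6, Gdf10, Tgfb3, Smad6, Smad9, Id2, Id3 and Nog, with Bmp7 again lower. Bmp2, Bmp5 and Gdf11 also rose, and Tgfb1, Gdf15, Acvr1, Smad7, Bmp8a and Lefty2 fell. Thus 18 of 42 members were called against XY WT (42.9%), 11 higher and 7 lower, beside 23.7% of all genes (11.1% higher and 12.6% lower), and the median log2 fold change was 0.16 against 0.01 over all genes. Lefty2 was the 1 member called in opposite directions in XX and XY -KTS KO, on few UMIs and with an XX call that several alternatives lost, as given below. In the XY sums the 7 Sertoli markers summed to 40.4 and 42.3 CPM in -KTS KO against 1721 and 1378 CPM in WT and the 5 pre-supporting markers to 529 and 480 CPM against 753 and 982 CPM, while the 7 interstitial markers, at 938 and 716 CPM against 892 and 535 CPM, overlapped. By cell number, Sertoli-like cells went from 1802 and 1347 to 2 and 6 and interstitial-like cells from 1969 and 1074 to 3095 and 2681, and the part of this makeup in the calls was not tested.

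Comparing +KTS KO with WT asked the same of the Frasier allele. Loss of +KTS comes with more -KTS in it, and these cannot be told apart here. In XX +KTS KO, Bmp2 and Bmp6 fell and Gdf15 and Smad7 rose, 4 of 42 members (9.52%) beside 5.13% of all genes (2.38% higher and 2.74% lower), with a median log2 fold change of 0.06 against -0.00 over all genes. In XY +KTS KO, Bmp5, Gdf11 and Bmpr1b rose and Tgfb1, Bmp6, Acvr1, Bambi and Lefty2 fell, 8 of 42 (19%) beside 12.7% of all genes (6.12% higher and 6.59% lower), with a median of 0.18 against 0.05. Bmp6 was the 1 member called in the same direction in both +KTS KO sexes. Which members were called in XY changed with the library left out, and without XY +KTS KO replicate 2 some of the calls were of other members. Each of the 8 calls was lost without at least 1 library. Acvr1, Bmpr1b and Gdf11 were lost only without XY WT replicate 1 (adjusted p 0.0667, 0.0620 and 0.0792). Tgfb1, Bmp5 and Lefty2 were lost there and without XY +KTS KO replicate 2. Bambi was lost there and without XY +KTS KO replicate 1, and Bmp6 without either XY +KTS KO library. Bmp5, Lefty2, Bambi and Bmp6 were also lost without XY WT replicate 2. Without XY +KTS KO replicate 1 the log2 fold change of Acvr1 was -1.30 and that of Gdf11 1.21, and without replicate 2 they were -0.68 and 0.65. The makeup of the sums moved here too. In XX the 6 pre-granulosa markers summed to 237 and 181 CPM in +KTS KO against 952 and 943 CPM in WT, and in XY the 7 Sertoli markers summed to 227 and 85.6 CPM against 1721 and 1378 CPM. Pre-granulosa-like cells numbered 2320 and 2350 in XX WT and 60 and 38 in XX +KTS KO, where unnamed clusters held 3842 and 1878 cells, and Sertoli-like cells numbered 1802 and 1347 in XY WT and 6 and 0 in XY +KTS KO. These names were rebuilt here from marker lists, so a cluster left unnamed may hold cells of a named type and these numbers do not show that a type is absent. The study itself named pre-granulosa clusters in XX and XY +KTS KO gonads, distinct from those of XX controls. Whether the unnamed clusters match them was not tested. The part of this makeup in the calls was not tested.

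Between the WT sexes, Bmp2, Bmp5, Gdf11 and Bmpr1b were higher in XX gonads and Gdf15, Tgfb1, Acvr1 and Lefty2 in XY gonads. These 8 of 42 members (19%) stood beside 13.5% of all autosomal genes (7.04% higher and 6.42% lower in XY), and the median log2 fold change of XY over XX was 0.18 against -0.02. The 7 Sertoli markers summed to 1721 and 1378 CPM in XY WT and 20.6 to 227 CPM in the 10 other libraries, and their part in these calls was not tested. In interstitial-like cells alone Acvr1 and Tgfb1 were the 2 members called. That class drew more on cluster 4 in XY WT than in XX WT, as given above. The mutant comparisons and the comparison of the sexes share the WT libraries, so their directions are not independent of one another. Some calls held whichever library was left out. They were Gdf6 in XX -KTS KO, Gdf6, Gdf10, Gdf11, Id3, Smad9, Tgfb1 and Tgfb3 in XY -KTS KO, and Acvr1, Bmp2, Bmp5, Gdf11 and Gdf15 between the WT sexes. Each other call of the 5 comparisons was lost without at least 1 library. In interstitial-like cells alone 21 of the calls held. In XX -KTS KO these were Gdf6, Tgfb3, Smad9 and Nog. In XY -KTS KO they were the same 4 with Bmp5, Gdf10, Gdf11, Gdf15, Tgfb1, Acvr1, Id2 and Id3. Bmp5, Acvr1 and Bmpr1b held in XY +KTS KO, and none did in XX +KTS KO. Those of Smad9 and Nog rest on few UMIs in some libraries, as given with these genes. In all of the 48 called pairs of member and comparison, the 2 libraries of a group lay wholly above or below the 2 of the other. The calls were made on these same sums, so this adds no support to them. The share of such pairs over all genes was not taken.

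**Figure D1:**
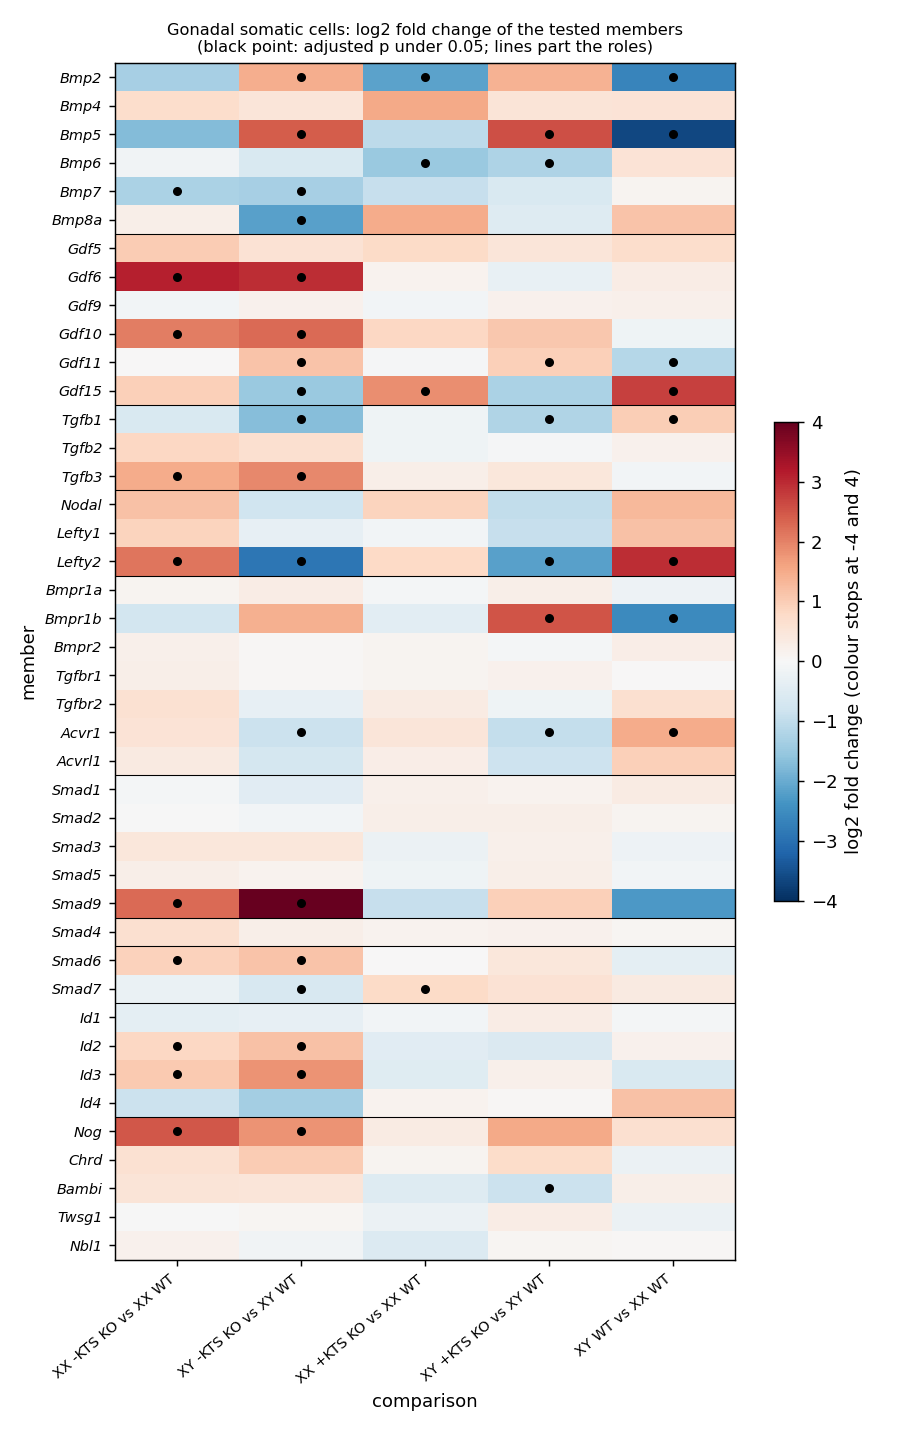
Log2 fold change of the 42 tested members (rows, parted by role) in the 5 comparisons of gonadal somatic sums (columns), with colour from lower (blue) to higher (red) and a black point where edgeR's adjusted p was under 0.05. Both -KTS KO columns carry points at Gdf6, Gdf10, Tgfb3, Smad6, Smad9, Id2, Id3 and Nog, and the XX +KTS KO column carries 4 points.

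Among the BMP ligands, Bmp2 (ENSMUSG00000027358, chromosome 2, 133552159 to 133562885, GRCm38) was called between the WT sexes and in a mutant of each sex. Its level was 56.6 and 46.9 CPM in the XX WT libraries, 20.6 and 21.0 in those of XX -KTS KO, and 11.7 and 11.7 in those of XX +KTS KO. The XY values were 6.99 and 9.58 CPM in WT, 19.6 and 25.8 CPM in -KTS KO and 33.3 and 10.6 CPM in +KTS KO. XX WT stood above the 10 other libraries, and XY +KTS KO replicate 1 stood well above replicate 2, so that group was not uniform.

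Bmp2 was lower in XY WT than in XX WT (log2 fold change -2.64, standard error 0.43, adjusted p = 0.00420), the largest called fall between the WT sexes after that of Bmp5. It fell in XX +KTS KO (log2 fold change -2.14, standard error 0.42, adjusted p = 0.0209), and its value in XX -KTS KO did not pass the threshold (log2 fold change -1.32, standard error 0.41, adjusted p = 0.0541). It rose in XY -KTS KO (log2 fold change 1.45, standard error 0.41, adjusted p = 0.0304), while its value in XY +KTS KO did not pass (log2 fold change 1.40, adjusted p = 0.0530). The effect of the mutation differed between the sexes for both genotypes, by an interaction term of 2.77 (adjusted p = 0.0348) for -KTS KO and 3.54 (adjusted p = 0.0126) for +KTS KO, each as XY minus XX on the log2 scale. Without XY +KTS KO replicate 1 the latter was 2.51 (adjusted p = 0.00331), and without replicate 2 it was 4.15 (adjusted p = 0.000341). Its call was lost without XX +KTS KO replicate 2 or XY WT replicate 1 (adjusted p up to 0.0609). The term for -KTS KO was called without XY WT replicate 2 (adjusted p = 0.0449) and lost without any other single library (lowest value 2.54, adjusted p up to 0.136) and with the replicate block (2.76, adjusted p = 0.0518). The calls of Bmp2 in XY -KTS KO and in XX +KTS KO were each lost without any 1 of their 4 libraries (adjusted p 0.0597 to 0.160 and 0.0671 to 0.134).

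The cells that held Bmp2 differed between groups. In XX WT it was highest in pre-granulosa-like cells, at 83.8 and 68.4 CPM, and it was at 58.8 and 53.7 CPM in pre-supporting-like cells. Pre-supporting-like cells of -KTS KO, which lay almost all in a cluster of their own (cluster 13), held Bmp2 at 65.2 and 59.2 CPM in XX and 59.2 and 99.4 CPM in XY, while those of XY WT were at 14.1 and 16.4 CPM. Bmp2 was lower in XX -KTS KO than in XX WT in some other classes, with 14.6 and 13.7 CPM against 31.8 and 41.2 CPM in coelomic epithelial-like and 6.88 and 13.1 CPM against 32.9 and 27.6 CPM in interstitial-like cells, without a test within coelomic epithelial-like cells. Sertoli-like cells, found in XY WT, were at 1.20 and 2.96 CPM. The summed level of 6 pre-granulosa markers moved with the sum for Bmp2: it was 952 and 943 CPM in XX WT and 120 to 417 CPM in the 10 other libraries. Its part in the result was not tested. Summed over interstitial-like cells alone, these 3 calls of Bmp2 were lost (log2 fold change -1.34 at adjusted p = 0.233 in XX +KTS KO, 0.11 at adjusted p = 0.896 in XY -KTS KO and -2.05 at adjusted p = 0.0592 between the WT sexes, edgeR).

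Bmp7, another BMP ligand, was lower in -KTS KO gonads of both sexes. It was at 17.2 and 9.74 CPM in the XX WT libraries, 6.98 and 4.23 in those of XX -KTS KO, and 9.37 and 4.76 in those of XX +KTS KO. Among XY libraries it was at 15.8 and 13.3 CPM in WT, 6.77 and 4.73 CPM in -KTS KO and 9.54 and 9.40 CPM in +KTS KO. Every -KTS KO library was below every WT library of either sex, and Bmp7 fell in XX (log2 fold change -1.26, standard error 0.37, adjusted p = 0.0465) and XY (log2 fold change -1.34, standard error 0.37, adjusted p = 0.0280). Both calls were lost in interstitial-like cells alone (log2 fold change -0.53 at adjusted p = 0.462 and -1.04 at adjusted p = 0.0782). Sertoli-like cells held Bmp7 at 22.3 and 19.2 CPM and pre-granulosa-like cells of XX WT at 22.2 and 13.9 CPM.

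Bmp5 and Bmp6 were called at low levels. Bmp5 was at 3.08 and 3.30 CPM in the XX WT libraries, 0.363 and 0.146 CPM in XY WT and 0.725 to 2.35 CPM in the mutants. The XY WT libraries were the lowest, with a log2 fold change of -3.63 (adjusted p = 0.00494) against XX WT, and Bmp5 rose by 2.41 (adjusted p = 0.0168) in XY -KTS KO and 2.57 (adjusted p = 0.0230) in XY +KTS KO. Bmp6 fell in both +KTS KO sexes, from 1.34 to 2.85 CPM in the WT to 0.536 and 0.486 CPM in XX (log2 fold change -1.49 at adjusted p = 0.0442) and 0.890 and 0.899 CPM in XY (log2 fold change -1.22 at adjusted p = 0.0477). In XY interstitial-like cells alone the direction of Bmp6 turned, with a log2 fold change of 0.70 (adjusted p = 0.419). Bmp8a rested on 2 to 23 UMIs per library and fell in XY -KTS KO (log2 fold change -2.16 at adjusted p = 0.0363), a call that DESeq2 and a fit without the filter did not make. Bmp4, a BMP ligand of many embryonic tissues, ranged from 4.04 to 21.0 CPM and was not called in any of the 5 comparisons.

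Of the GDF ligands, Gdf6 (ENSMUSG00000051279, chromosome 4, 9844372 to 9862345), a ligand of the BMP type, gave the largest change on loss of the -KTS variant among the members above 5 CPM. It was at 0.733 and 1.54 CPM in the XX WT libraries, 11.2 and 8.76 in those of XX -KTS KO, and 0.820 and 1.72 in those of XX +KTS KO. For XY the values were 1.09 and 1.72 CPM in WT, 9.90 and 12.1 CPM in -KTS KO and 1.42 and 0.889 CPM in +KTS KO. The 4 -KTS KO libraries lay at 8.76 to 12.1 CPM and the 8 others at 0.733 to 1.72 CPM, without overlap. Gdf6 rose in XX (log2 fold change 3.12, standard error 0.45, adjusted p = 0.00195) and in XY (log2 fold change 2.96, standard error 0.45, adjusted p = 0.00156), and neither call was lost without any single library (largest adjusted p 0.0194 and 0.0166).

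Interstitial-like cells held 18.2% to 78.7% of the Gdf6 UMIs of a library (median 51.1%). Within them it was at 14.4 and 11.2 CPM in the XX -KTS KO libraries and 13.0 and 17.6 CPM in XY -KTS KO, against 2.13 and 5.56 CPM in the XX WT libraries and 0.927 and 2.25 CPM in XY WT, and the rise was called in both sexes (log2 fold change 1.84 at adjusted p = 0.0486 and 3.26 at adjusted p = 0.00261). Other clusters made up this class in -KTS KO than in WT, as given above. In coelomic epithelial-like cells, again from other clusters, -KTS KO stood higher, at 8.81 and 6.86 CPM in XX against 0.961 and 1.95 CPM in XX WT, and at 8.78 and 9.31 CPM in XY against 0.717 and 0.812 CPM in XY WT. Pre-supporting-like cells differed by sex: Gdf6 was at 2.45 and 2.72 CPM in the XX -KTS KO libraries against 0 and 0.314 CPM in XX WT, but at 2.39 and 2.11 CPM in XY -KTS KO, below the 4.63 and 3.41 CPM of XY WT. The 7 interstitial markers summed to 612 to 938 CPM in -KTS KO, 421 and 395 CPM in the XX WT libraries and 892 and 535 CPM in XY WT.

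Gdf10 showed a like pattern at lower counts, with 2.60 to 3.27 CPM in the 4 -KTS KO libraries and 0.541 to 1.69 CPM in the 8 others (log2 fold change 2.04 at adjusted p = 0.00685 in XX and 2.27 at adjusted p = 0.00294 in XY). Interstitial-like cells held 59.1% to 94.9% of the Gdf10 UMIs of a library, and in them alone the XX call was lost (log2 fold change 0.81 at adjusted p = 0.369) while the XY rise was called (log2 fold change 1.66 at adjusted p = 0.0408). Gdf11, a ligand of activin-type receptors, was instead set apart by XY WT. It was at 13.0 and 14.0 CPM in the XX WT libraries, 13.3 and 14.1 in those of XX -KTS KO, and 13.7 and 12.7 in those of XX +KTS KO. XY libraries stood at 5.78 and 6.40 CPM in WT, 12.3 and 14.4 CPM in -KTS KO and 9.55 and 13.9 CPM in +KTS KO. The 2 XY WT libraries were the lowest of all 12 and the 10 others spanned 9.55 to 14.4 CPM. Gdf11 was lower in XY WT than in XX WT (log2 fold change -1.15, standard error 0.18, adjusted p = 0.00366), and it rose in XY -KTS KO (log2 fold change 1.13, standard error 0.18, adjusted p = 0.00201) and in XY +KTS KO (log2 fold change 0.94, standard error 0.18, adjusted p = 0.0103). In interstitial-like cells alone the rise in XY -KTS KO was called (log2 fold change 1.07 at adjusted p = 0.0183), and the calls in XY +KTS KO (log2 fold change 0.87 at adjusted p = 0.0701) and between the WT sexes (log2 fold change -0.86 at adjusted p = 0.150) were lost. Pre-supporting-like cells of XY WT were at 6.76 and 8.55 CPM and Sertoli-like cells at 6.40 and 6.87 CPM, against 17.5 and 19.9 CPM in pre-supporting-like cells of XX WT.

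Gdf15, a distant member of the family known as a stress-responsive factor, was highest in XY WT, at 4.40 and 3.83 CPM against 0.820 and 0.429 CPM in XX WT (log2 fold change 2.73, standard error 0.41, adjusted p = 0.00277). It fell in XY -KTS KO to 1.48 and 1.44 CPM (log2 fold change -1.49 at adjusted p = 0.0193) and rose in XX +KTS KO to 2.31 and 2.20 CPM (log2 fold change 1.86 at adjusted p = 0.0276). Gdf5 and Gdf9 were tested and not called, at no more than 1.24 CPM.

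The TGF-beta ligands moved in different ways. Tgfb1 was highest in XY WT: it was at 7.45 and 7.66 CPM in the XX WT libraries, 5.10 and 4.75 in those of XX -KTS KO, and 7.45 and 6.02 in those of XX +KTS KO, and in XY it was at 18.9 and 10.8 CPM in WT, 5.11 and 4.05 CPM in -KTS KO and 7.27 and 5.76 CPM in +KTS KO. The XY WT libraries differed from each other by more than those of the other groups, and both still lay above the 10 others. Tgfb1 was higher in XY WT than in XX WT (log2 fold change 0.98, standard error 0.25, adjusted p = 0.0317) and fell in XY -KTS KO (log2 fold change -1.70, standard error 0.26, adjusted p = 0.00160) and XY +KTS KO (log2 fold change -1.19, standard error 0.25, adjusted p = 0.0163). The call between the WT sexes was lost without XX WT replicate 1, XX WT replicate 2 or XY WT replicate 1, and leaving out the last brought the log2 fold change to 0.52. Endothelial-like cells, outside these sums, held 23.4% to 40.3% of the Tgfb1 UMIs of a library.

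Tgfb3 was higher in -KTS KO gonads of both sexes. It was at 2.50 and 3.90 CPM in the XX WT libraries, 9.38 and 8.45 in those of XX -KTS KO, and 2.81 and 4.70 in those of XX +KTS KO. The XY values were 2.78 and 3.11 CPM in WT, 10.2 and 12.1 CPM in -KTS KO and 5.67 and 2.43 CPM in +KTS KO, so XY +KTS KO replicate 1 stood between the -KTS KO libraries and the rest. The rise was called in XX (log2 fold change 1.47, standard error 0.39, adjusted p = 0.0285) and XY (log2 fold change 1.92, standard error 0.39, adjusted p = 0.00682), and within interstitial-like cells (log2 fold change 1.64 at adjusted p = 0.0267 and 2.14 at adjusted p = 0.00394). Leaving out any 1 of the 4 libraries ended the XX call (adjusted p 0.0525 to 0.188). In pre-supporting-like cells Tgfb3 was at 1.43 and 2.01 CPM in the XX -KTS KO libraries and 1.43 and 3.45 CPM in XX WT. Tgfb2 was not called, and the XY +KTS KO libraries lay far apart, at 36.3 and 9.27 CPM.

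**Figure D2:**
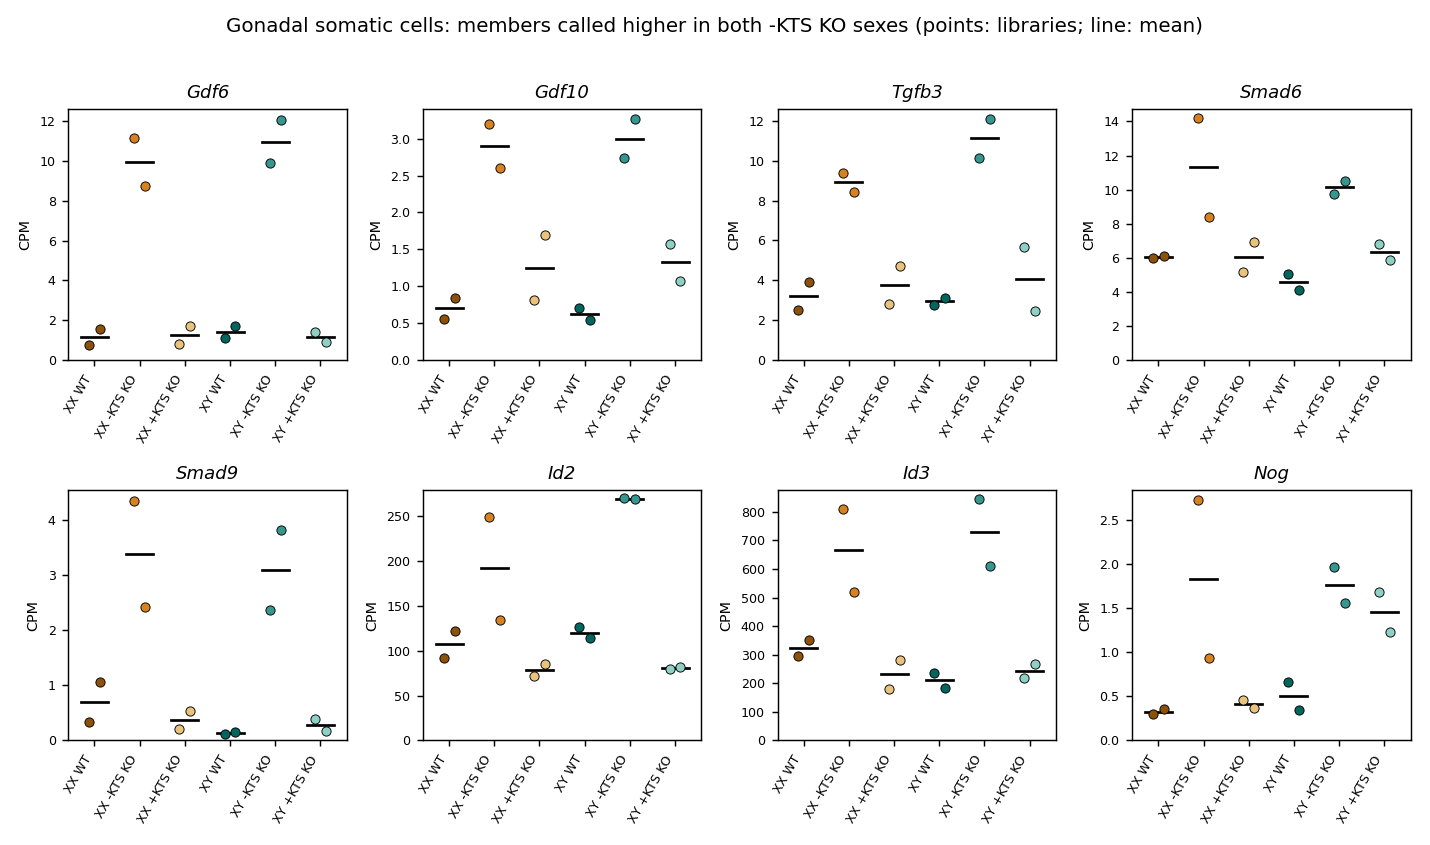
Levels (CPM, linear axes from 0) in gonadal somatic sums of the 8 members called higher in both -KTS KO sexes; each point is 1 of the 2 libraries of a group and the line is their mean. For Gdf6, Gdf10 and Tgfb3 the 4 -KTS KO libraries lie above all 8 others, while Nog in XX -KTS KO replicate 2 (0.943 CPM) lies below both XY +KTS KO libraries.

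Nodal, Lefty1 and Lefty2 were at or under 1.42 CPM in all gonadal somatic sums. Lefty2 was called there in 4 comparisons on 8 to 58 UMIs per library: higher in XX -KTS KO (log2 fold change 2.15 at adjusted p = 0.0474), lower in XY -KTS KO (log2 fold change -2.89 at adjusted p = 0.00970) and XY +KTS KO (log2 fold change -2.17 at adjusted p = 0.0412), and higher in XY WT than in XX WT (log2 fold change 2.96 at adjusted p = 0.0146). Germ cells held 94.8% to 99.2% of the Lefty2 UMIs of each library. The summed germ cell markers in these somatic sums moved with Lefty2 in part: they were at 59.3 and 48.9 CPM in the XX WT libraries, 14.6 and 70.9 CPM in the XX -KTS KO libraries, 58.6 and 94.5 CPM in XY WT, 16.2 and 16.0 CPM in XY -KTS KO and 35.6 and 57.7 CPM in XY +KTS KO. In XX -KTS KO, replicate 2 was the higher library for both, with Lefty2 at 0.218 and 0.733 CPM. The XX -KTS KO call was lost without the clusters of few UMIs, with doublets retained and with the replicate block. Its log2 fold change was 1.06 to 2.80 in fits without a library. In cells thinned to 5000 UMIs the calls in XX and XY -KTS KO were lost. The part of germ cell RNA in these 4 calls was not tested. All 4 were lost in interstitial-like cells alone, where the log2 fold changes were 0.67 in XX -KTS KO, -2.66 in XY -KTS KO, -1.88 in XY +KTS KO and 1.61 between the WT sexes, and Lefty2 was at 0.519 and 0.651 CPM in XY WT and 0.0484 and 0.136 CPM in XY -KTS KO.

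Of the 7 receptors, Bmpr1a, Bmpr2, Tgfbr1, Tgfbr2 and Acvrl1 were not called in any of the 5 comparisons. Acvr1, a type I receptor for BMPs, was set apart by XY WT. It was at 6.02 and 6.45 CPM in the XX WT libraries, 8.59 and 9.64 in those of XX -KTS KO, and 8.001 and 9.43 in those of XX +KTS KO. Among XY libraries it was at 17.6 and 17.5 CPM in WT, 9.20 and 10.2 CPM in -KTS KO and 10.95 and 7.02 CPM in +KTS KO. Both XY WT libraries lay above the 10 others (log2 fold change 1.49, standard error 0.20, adjusted p = 0.00173 against XX WT), and Acvr1 fell in XY -KTS KO (log2 fold change -0.85, standard error 0.20, adjusted p = 0.0122) and XY +KTS KO (log2 fold change -0.96, standard error 0.20, adjusted p = 0.0138). It was not called in either XX mutant, and the difference between the sexes was called for -KTS KO (log2 fold change -1.40 at adjusted p = 0.0291) and +KTS KO (log2 fold change -1.45 at adjusted p = 0.0235). The first of these terms was lost in 7 of 8 fits without a library and the second in 4 of 8, and both were lost in interstitial-like cells alone (log2 fold change -1.39 at adjusted p = 0.164 and -1.40 at adjusted p = 0.126).

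Within XY WT, Acvr1 was at 21.6 and 30.5 CPM in interstitial-like, 22.8 and 30.1 CPM in coelomic epithelial-like and 4.48 and 7.72 CPM in Sertoli-like cells. In interstitial-like cells alone, its difference between the WT sexes (log2 fold change 1.44 at adjusted p = 0.0152) and its falls in XY -KTS KO (log2 fold change -1.31 at adjusted p = 0.00371) and XY +KTS KO (log2 fold change -1.15 at adjusted p = 0.0180) were all called. Bmpr1b, another type I receptor for BMPs, was lowest in XY WT, at 0.293 and 0.716 CPM, against 1.91 and 4.001 CPM in XX WT (log2 fold change -2.56 at adjusted p = 0.00712) and 3.10 and 2.68 CPM in XY +KTS KO (log2 fold change 2.52 at adjusted p = 0.00912). Acvrl1, a receptor of endothelial cells, was at 1.83 to 4.76 CPM in somatic sums and at 32.9 to 68.1 CPM in endothelial-like cells.

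**Figure D3:**
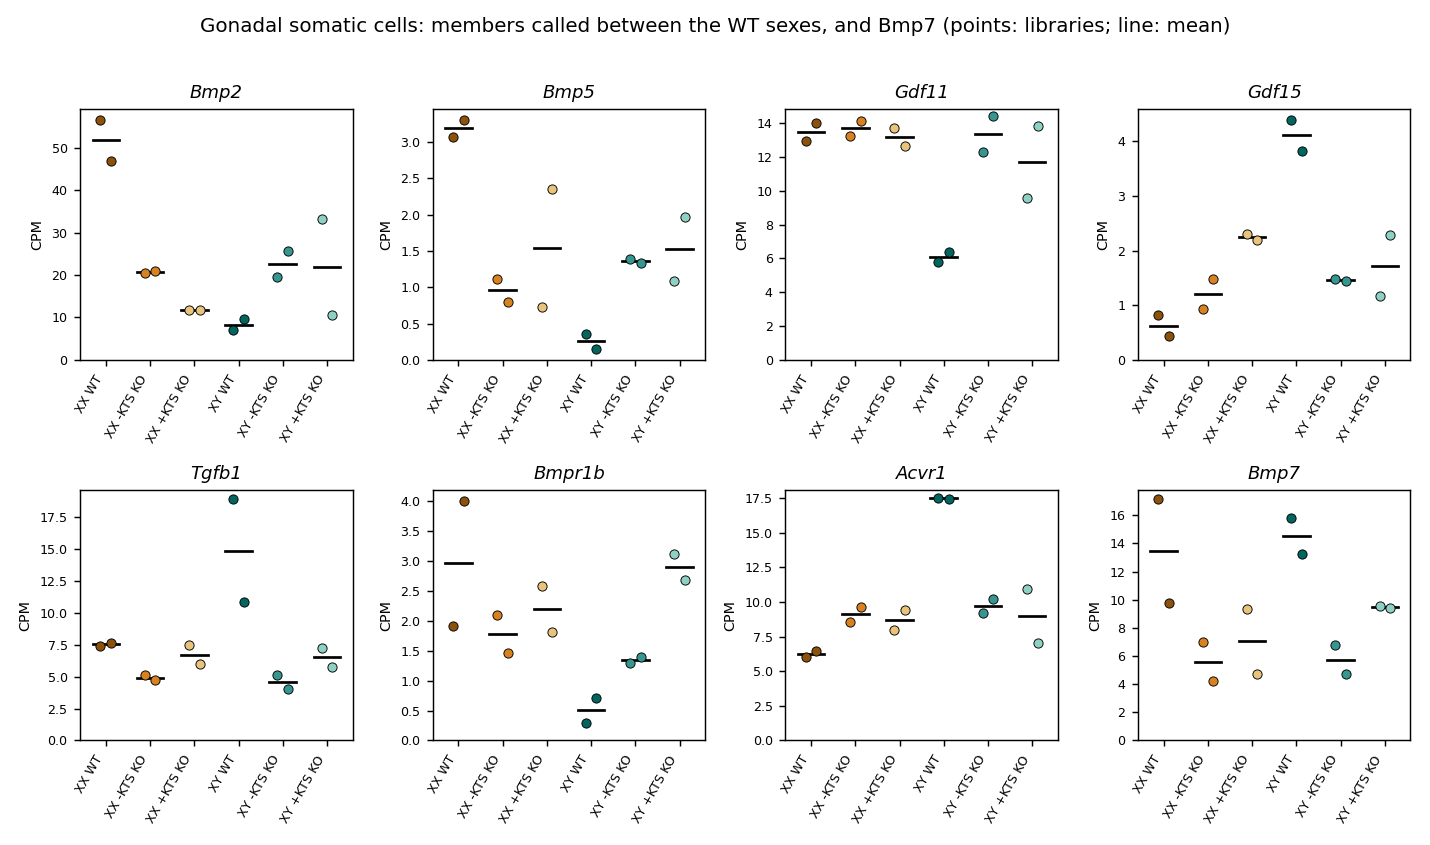
Levels (CPM, linear axes from 0) in gonadal somatic sums of 7 members called between the WT sexes, and of Bmp7; each point is 1 of the 2 libraries of a group and the line is their mean. XY WT is the lowest group for Bmp2, Bmp5, Gdf11 and Bmpr1b and the highest for Gdf15, Tgfb1 and Acvr1.

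Among the Smads, Smad1, Smad2, Smad3, Smad5 and the common Smad4 were called in none of the 5 comparisons. Smad9, a BMP-type receptor Smad, was at 2.37 to 4.34 CPM in the 4 -KTS KO libraries and at 0.126 to 1.06 CPM in the 8 others. It rose in XX (log2 fold change 2.27, standard error 0.62, adjusted p = 0.0345) and XY -KTS KO (log2 fold change 4.43, standard error 0.73, adjusted p = 0.00236), with as few as 9 UMIs in the lowest library, and both calls held in interstitial-like cells (log2 fold change 2.82 at adjusted p = 0.0391 and 4.14 at adjusted p = 0.00618). The XX call was lost without either XX -KTS KO library or XX WT replicate 1, with log2 fold changes of 1.68 to 3.35 over the 4 fits without a library (adjusted p up to 0.190). Interstitial-like cells held 13.9% to 87.4% of the Smad9 UMIs of a library (median 46.1%). Within them Smad9 was at 0.111 to 6.32 CPM over the 12 libraries, so the lowest held few UMIs and the sizes are uncertain. The window before Smad9 printed above holds the GGCGCC motif.

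Smad6, the inhibitory Smad that acts mainly on BMP receptors, was at 5.97 and 6.07 CPM in the XX WT libraries, 14.2 and 8.41 in those of XX -KTS KO, and 5.17 and 6.94 in those of XX +KTS KO. For XY the values were 5.05 and 4.13 CPM in WT, 9.76 and 10.5 CPM in -KTS KO and 6.80 and 5.87 CPM in +KTS KO. All 4 -KTS KO libraries lay above the 8 others, and Smad6 rose in XX (log2 fold change 0.91, standard error 0.25, adjusted p = 0.0315) and XY (log2 fold change 1.14, standard error 0.25, adjusted p = 0.00924). In interstitial-like cells alone both calls were lost (log2 fold change 0.81 at adjusted p = 0.135 and 0.73 at adjusted p = 0.108). Smad7, the inhibitory Smad of both branches, took another course. It was at 68.5 and 67.6 CPM in the XX WT libraries, 59.8 and 54.6 in those of XX -KTS KO, and 110.3 and 119 in those of XX +KTS KO. XY libraries stood at 85.6 and 87.9 CPM in WT, 55.2 and 55.1 CPM in -KTS KO and 159.8 and 101 CPM in +KTS KO. It fell in XY -KTS KO (log2 fold change -0.65, standard error 0.18, adjusted p = 0.0276) and rose in XX +KTS KO (log2 fold change 0.75, standard error 0.18, adjusted p = 0.0446). Both calls were lost in interstitial-like cells alone (log2 fold change -0.23 at adjusted p = 0.354 and 0.56 at adjusted p = 0.146), and the XX one also with the replicate block. Each was also lost without any 1 of its 4 libraries (adjusted p up to 0.105 and 0.216). The 4 +KTS KO libraries were the highest of all 12, but in XY the 2 libraries lay far apart and the comparison with XY WT was not called (log2 fold change 0.59, adjusted p = 0.0607).

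Of the Id genes, encoding dominant negative helix-loop-helix proteins, Id2 and Id3 rose in -KTS KO gonads of both sexes. Id3 (ENSMUSG00000007872, chromosome 4, 136143497 to 136145755) was at 295 and 351 CPM in the XX WT libraries, 811 and 520 in those of XX -KTS KO, and 182 and 283 in those of XX +KTS KO. The XY values were 237 and 185 CPM in WT, 845 and 611 CPM in -KTS KO and 218 and 269 CPM in +KTS KO. The 4 -KTS KO libraries lay above all 8 others, and Id3 rose in XX (log2 fold change 1.04, standard error 0.28, adjusted p = 0.0323) and XY (log2 fold change 1.79, standard error 0.29, adjusted p = 0.00210). In interstitial-like cells it was at 1061 and 694 CPM in the XX -KTS KO libraries and 1124 and 894 CPM in XY -KTS KO, against 352 and 456 CPM in the XX WT libraries and 266 and 270 CPM in XY WT, with log2 fold changes of 1.20 (adjusted p = 0.0788) and 1.84 (adjusted p = 0.00763), so the XX value did not pass there. Pre-supporting-like cells, from cluster 13 in -KTS KO and clusters 15, 18 and 27 in WT, did not show a higher level: Id3 was at 146 and 96.0 CPM in the XX -KTS KO libraries and 245 and 237 CPM in XX WT.

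Id2 was at 91.8 and 122 CPM in the XX WT libraries, 249 and 134 in those of XX -KTS KO, and 71.8 and 84.7 in those of XX +KTS KO. Among XY libraries it was at 127 and 114 CPM in WT, 269 and 269 CPM in -KTS KO and 79.8 and 81.6 CPM in +KTS KO. The rise was larger than the spread in XY (log2 fold change 1.17, standard error 0.25, adjusted p = 0.00929), where both XY -KTS KO libraries lay at the same level. In XX the 2 -KTS KO libraries lay far apart (log2 fold change 0.84, standard error 0.25, adjusted p = 0.0477), and the call was lost without XX -KTS KO replicate 1 (log2 fold change 0.32, adjusted p = 0.370), XX WT replicate 1 (0.65, adjusted p = 0.279) or XX WT replicate 2 (1.06, adjusted p = 0.0820), with RLE size factors, with the replicate block and in interstitial-like cells alone (log2 fold change 0.33 at adjusted p = 0.502). Id1 had no such rise: it was at 104 and 49.7 CPM in the XX -KTS KO libraries and 83.3 and 69.6 CPM in XY -KTS KO, against 91.1 and 110.2 CPM in the XX WT libraries and 101 and 90.5 CPM in XY WT, and neither Id1 nor Id4 was called in any of the 5 comparisons. In pre-supporting-like cells, of these different clusters, Id1 was at 34.2 and 17.7 CPM in the XX -KTS KO libraries and 94.4 and 93.1 CPM in XX WT, and at 31.7 and 19.5 CPM in XY -KTS KO and 67.0 and 60.3 CPM in XY WT, with no test within that class. Id2 and Id3 are abundant in interstitial-like cells, whose markers were at the summed levels given with Gdf6, and the part of that class in these sums was not tested beyond the values within it.

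Among the antagonists, Nog, the secreted BMP inhibitor noggin, rose in -KTS KO of both sexes from low levels. It was at 2.73 and 0.943 CPM in the XX -KTS KO libraries and 1.97 and 1.56 CPM in XY -KTS KO, against 0.302 and 0.356 CPM in the XX WT libraries and 0.670 and 0.351 CPM in XY WT (log2 fold change 2.48 at adjusted p = 0.0101 in XX and 1.78 at adjusted p = 0.0265 in XY). The XX call was lost without XX -KTS KO replicate 1 or either XX WT library (lowest log2 fold change 1.51, adjusted p up to 0.0807). The XY call was lost without either XY -KTS KO library or XY WT replicate 2 (adjusted p up to 0.148) and in cells thinned to 5000 UMIs. The rise was also called within interstitial-like cells (log2 fold change 3.28 at adjusted p = 0.0397 and 4.57 at adjusted p = 0.00812). Nog was at 0.0592 to 4.35 CPM there over the 12 libraries, so the lowest held few UMIs and the sizes are uncertain. Bambi, a pseudoreceptor that blocks signalling at the membrane, was at 213 and 171 CPM in the XX WT libraries, 296 and 252 in those of XX -KTS KO, and 128 and 141 in those of XX +KTS KO. For XY the values were 234 and 213 CPM in WT, 365 and 253 CPM in -KTS KO and 101 and 147 CPM in +KTS KO. It fell in XY +KTS KO (log2 fold change -0.85, standard error 0.22, adjusted p = 0.0352), where without replicate 1 the value was -0.59 (adjusted p = 0.155) and without replicate 2 it was -1.15 (adjusted p = 0.0174). The call was also lost in cells thinned to 5000 UMIs and in interstitial-like cells alone (log2 fold change -0.28 at adjusted p = 0.540). Pre-supporting-like cells of +KTS KO held Bambi at 62.2 and 78.0 CPM in XX and 43.7 and 66.7 CPM in XY, against 173 and 147 CPM in the XX WT libraries and 299 and 242 CPM in XY WT. Chrd, Twsg1 and Nbl1 were not called, and Grem1 was not tested.

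The tests of the difference between the sexes in the effect of a mutation called 6 of 42 members for -KTS KO (14.3%, beside 3.11% of all genes, 1.26% higher and 1.85% lower): Bmp2, Bmp5 and Gdf11 with a higher and Acvr1, Gdf15 and Lefty2 with a lower change in XY than in XX. For +KTS KO they called 5 of 42 (11.9%, beside 3.91% of all genes, 1.79% higher and 2.12% lower): Bmp2, Bmp5 and Bmpr1b with a higher and Acvr1 and Gdf15 with a lower change in XY. These members also differed between the WT sexes, and the WT libraries enter both tests. DESeq2 called 7 members beside 1356 of 17065 genes for -KTS KO, and 6 beside 1537 of 17409 for +KTS KO. None of the 8 members raised in both -KTS KO sexes was called in the difference for -KTS KO. All of the edgeR calls were lost in interstitial-like cells alone, some at about the same size (3.14 for Bmpr1b, and -1.39 and -1.40 for Acvr1), and each was lost without at least 1 library. For -KTS KO the count was 0 without XX -KTS KO replicate 2, either XX WT library, either XY -KTS KO library or XY WT replicate 1. It was 1 without XX -KTS KO replicate 1 and 5 without XY WT replicate 2. The last fit called 718 of all genes and the others 103 to 175. For +KTS KO it was 0 without XY WT replicate 1, 1 without XX +KTS KO replicate 2 or XX WT replicate 2, and 3 to 6 without another library. In the test of +KTS KO the term of Bmpr1b was lost without XY +KTS KO replicate 1 (2.84, adjusted p = 0.0586) and that of Bmp5 without replicate 2 (3.13, adjusted p = 0.0507), while that of Gdf15 was called without either (-2.71 and -3.68).

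Germ cells are a lineage apart from the somatic cells and carry the same Wt1 alleles. They lay in clusters 2, 19 and 20. Their sums held Wt1 at 1.64 to 13.8 CPM, far below the somatic sums. Whether changes in them arise in germ cells or through the somatic cells was not tested. Cluster 19 had no more than 4 cells in XX WT replicate 1, both XY WT libraries and XY -KTS KO replicate 1, but 199 of the 477 germ cells of XX WT replicate 2 and 71 to 329 in the 7 others. Its part in the values was not tested. Of the 48 members, 29 were tested in germ cell sums. The Nodal antagonists Lefty1 (ENSMUSG00000038793, chromosome 1, 180935022 to 180938400) and Lefty2 (ENSMUSG00000066652, chromosome 1, 180893108 to 180899103), which lie beside each other, were low in germ cells of XX WT and high in those of every other group. Lefty2 was at 5.66 and 9.30 CPM in the XX WT libraries, 67.9 and 61.5 in those of XX -KTS KO, and 132 and 113 in those of XX +KTS KO. XY libraries stood at 153 and 117 CPM in WT, 58.4 and 55.1 CPM in -KTS KO and 87.7 and 156 CPM in +KTS KO. Lefty1 was at 5.97 and 6.41 CPM in the XX WT libraries, 63.7 and 78.8 in those of XX -KTS KO, and 86.3 and 80.5 in those of XX +KTS KO. The XY values were 114 and 64.1 CPM in WT, 63.9 and 32.1 CPM in -KTS KO and 39.1 and 84.8 CPM in +KTS KO. For both genes the 2 XX WT libraries lay below all 10 others.

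Against XX WT, Lefty2 rose in XX -KTS KO (log2 fold change 3.13, standard error 0.31, adjusted p = 0.00661) and in XX +KTS KO (log2 fold change 4.05, standard error 0.32, adjusted p = 0.000746), and it was higher in XY WT (log2 fold change 4.19, standard error 0.32, adjusted p = 0.000527). Lefty1 rose in XX -KTS KO (log2 fold change 3.53, standard error 0.44, adjusted p = 0.0152) and XX +KTS KO (log2 fold change 3.75, standard error 0.44, adjusted p = 0.00772) and was higher in XY WT (log2 fold change 3.85, standard error 0.44, adjusted p = 0.00414). These were the 2 of 29 members called in each XX mutant (6.9%), where 0.0647% of all genes (9 of 13909) were called in XX -KTS KO, 0.0575% higher and 0.00719% lower, and 0.0719% (10) in XX +KTS KO, 0.0575% higher and 0.0144% lower. Between the WT sexes 3 of 29 were called (10.3%, beside 0.314% of autosomal genes, 0.232% higher and 0.0823% lower), with Id1 beside them. All 3 comparisons share the XX WT germ cells, and no call of Lefty1 held without XX WT replicate 1 or without XX WT replicate 2 (highest adjusted p 0.471, 0.251 and 0.140 in the 3 comparisons), while Lefty2 kept its call without any single library in XX +KTS KO and between the WT sexes. Lefty1 and Lefty2 are related in sequence: of 451 windows of 50 bases in the last 500 bases of the Lefty1 transcript, 11 also occur in Lefty2, and 0 of 451 the other way, and reads from such windows cannot be told apart.

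Shares of germ cells with a UMI were also lowest in XX WT. After thinning each cell to 5000 UMIs, 2.46% and 4.18% of XX WT germ cells held a Lefty2 UMI, against 20.4% to 49.2% in the 10 other libraries, and 11.4% and 19.7% against 48.1% to 91.3% without thinning. In gonadal somatic cells of the same libraries, whose sums held Lefty2 at no more than 0.847 CPM, the thinned shares were 0% to 0.434%. Median depth was 24243 to 42757 UMIs per germ cell and 11059 to 14672 UMIs per somatic cell by group. Among the genes called in germ cells, Pmepa1, an inhibitor of TGF-beta signalling outside the 48 members, moved with the Lefty genes, at 1.49 and 2.17 CPM in XX WT and 5.80 to 15.1 CPM in the 10 other libraries (log2 fold changes 2.17, 2.88 and 2.95 in the 3 comparisons). It was singled out after its values were seen.

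**Figure D4:**
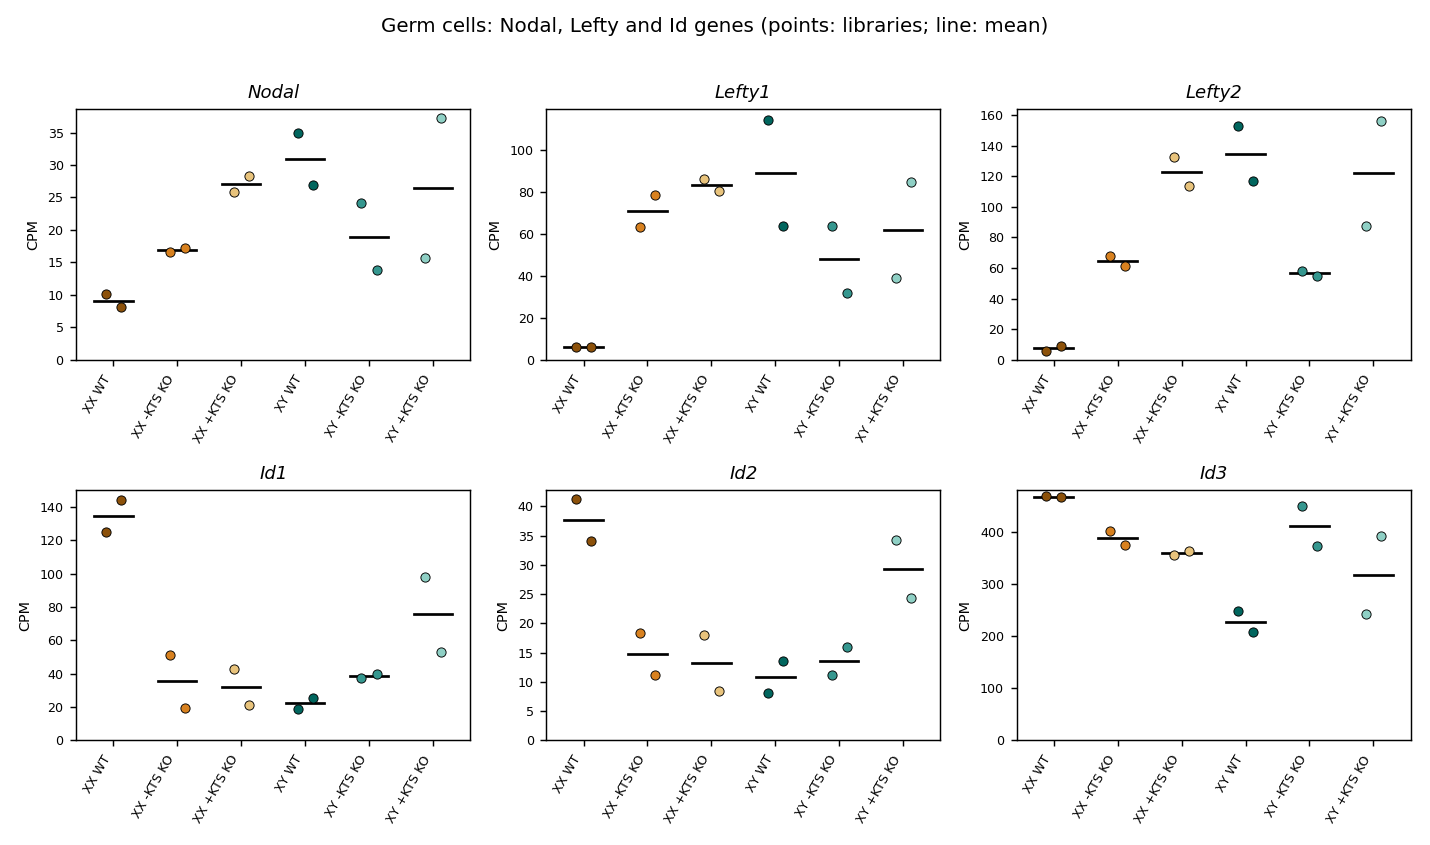
Levels (CPM, linear axes from 0) of Nodal, Lefty1, Lefty2, Id1, Id2 and Id3 in germ cell sums; each point is 1 of the 2 libraries of a group and the line is their mean. XX WT has the lowest mean for Nodal, Lefty1 and Lefty2 and the highest for Id1, Id2 and Id3.

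Nodal, the ligand that the Lefty proteins inhibit, was at 10.1 and 8.13 CPM in the XX WT libraries, 16.6 and 17.3 in those of XX -KTS KO, and 25.9 and 28.3 in those of XX +KTS KO. In XY germ cells it was at 34.9 and 26.9 CPM in WT, 24.1 and 13.8 CPM in -KTS KO and 15.6 and 37.2 CPM in +KTS KO. XX WT again held the 2 lowest levels, but no comparison passed the threshold (log2 fold change 0.89 at adjusted p = 0.410 in XX -KTS KO, 1.57 at adjusted p = 0.322 in XX +KTS KO and 1.76 at adjusted p = 0.0765 between the WT sexes). Id1, Id2 and Id3 had their highest mean in XX WT. Id1 was at 125 and 144 CPM in the XX WT libraries, 51.2 and 19.7 in those of XX -KTS KO, and 42.8 and 21.3 in those of XX +KTS KO. In XY germ cells it was at 19.1 and 25.5 CPM in WT, 37.2 and 40.1 CPM in -KTS KO and 98.2 and 53.1 CPM in +KTS KO. Both XX WT libraries lay above all 10 others, and Id1 was lower in XY WT than in XX WT (log2 fold change -2.59, standard error 0.45, adjusted p = 0.0418), a call that was lost without any 1 of the 4 libraries. Id2 was at 41.2 and 34.0 CPM in the XX WT libraries and 8.19 and 13.6 CPM in XY WT without passing the threshold. Amh and Cst9, Sertoli cell genes, and Col9a3, a leading gene of the Sertoli-like cluster, were among the 42 genes called between the WT sexes in germ cells. They were higher in XY WT (log2 fold changes 6.93, 6.33 and 5.61), and their part in that comparison was not tested. The 7 Sertoli markers summed to 104 and 22.6 CPM in the XX WT libraries and 56.0 and 87.1 CPM in XY WT germ cell sums, which overlap. Only 1 of the 7 was found in every germ cell sum, and XX WT held 0 Sertoli-like cells. This sum therefore cannot tell how much Sertoli RNA the germ cell sums held.

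Germ cells of either XY mutant, set against XY WT, gave 0 of 29 members called, where edgeR also called 0 of all 13909 genes tested in both comparisons (0%). At an unadjusted p under 0.05 there were 4 members and 899 genes in XY -KTS KO and 5 members and 1050 genes in XY +KTS KO. DESeq2 called 1 member in each, with 33 and 23 of all genes.

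The germ and somatic sums of the same 12 libraries were compared with each library as a block. Lefty2, Nodal and Lefty1 were the 3 members furthest above the somatic level in germ cells, while all 7 receptors were lower. The ligands Gdf6, Bmp2 and Tgfb2, the antagonists Nbl1 and Bambi and the receptor Bmpr2 were among those lower in germ cells, while the ligands Tgfb1, Bmp7 and Gdf15 were higher (log2 fold changes 1.65, 0.86 and 0.70). The call of Gdf15 (adjusted p = 0.0458) was lost in 8 of 12 fits without a library, with RLE size factors, without the low-count filter, without the library block and without shallow clusters. Of 39 members tested 37 were called (94.9%), 9 higher and 28 lower in germ cells, beside 87.4% of all genes (40.8% higher and 46.6% lower), and the median log2 fold change was -1.76 against -0.12 over all genes. Most genes differed between the 2 classes, so sizes are given.

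Levels over the 12 libraries are given as the lowest, the median and the highest, in the scaling of this joint fit. Nodal was at 8.50, 22.5 and 37.6 CPM in germ cells and 0.0693, 0.162 and 0.274 CPM in somatic cells (log2 fold change 6.98, standard error 0.19, adjusted p = 1.533e-13). Lefty2 was at 6.01, 83.2 and 164 CPM in germ and 0.0891, 0.171 and 0.796 CPM in somatic cells (log2 fold change 8.31, standard error 0.37, adjusted p = 1.705e-11), and Lefty1 at 6.34, 69.6 and 123 CPM and 0.428, 0.579 and 1.33 CPM (log2 fold change 6.19, standard error 0.37, adjusted p = 4.118e-10). For each of the 3, the lowest germ library lay above the highest somatic library. Germ cells held 87.4% to 95.9% of the Nodal UMIs of a library and 66.1% to 96.2% of those of Lefty1. Tgfb1 was at 15.5, 20.2 and 28.0 CPM in germ and 3.84, 6.22 and 17.9 CPM in somatic cells (log2 fold change 1.65, standard error 0.18, adjusted p = 5.759e-07), higher in germ cells in 12 of 12 libraries, with ranges that overlap. Smad2, which carries Nodal and TGF-beta signals, was at 37.4, 46.7 and 56.5 CPM in germ and 33.9, 39.8 and 48.8 CPM in somatic cells, and its small difference was called (log2 fold change 0.21, standard error 0.0563, adjusted p = 0.00263), though not without the low-count filter. Smad3, which carries the same signals, was lower in germ cells in 12 of 12 libraries, at 1.30, 2.31 and 4.02 CPM against 7.63, 9.37 and 12.8 CPM in somatic cells (log2 fold change -1.97, standard error 0.13, adjusted p = 1.589e-09).

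In the other direction, Bmp2 was at 0.152, 0.574 and 1.70 CPM in germ cells and 6.60, 19.1 and 54.1 CPM in somatic cells (log2 fold change -5.02, standard error 0.33, adjusted p = 1.379e-09). Tgfb2 was at 0.819, 1.70 and 2.75 CPM in germ and 8.90, 24.2 and 37.5 CPM in somatic cells (log2 fold change -3.78, standard error 0.16, adjusted p = 1.337e-11), and Bambi at 15.8, 22.9 and 32.5 CPM in germ and 93.1, 202 and 344 CPM in somatic cells (log2 fold change -3.06, standard error 0.14, adjusted p = 1.852e-11). The highest germ library lay below the lowest somatic library for these 3 genes. Among receptors, Bmpr2, the type II BMP receptor, was at 3.70, 5.19 and 7.27 CPM in germ and 19.9, 24.5 and 31.4 CPM in somatic cells (log2 fold change -2.29), again without overlap. Tgfbr1, the type I receptor of TGF-beta, was at 10.3, 13.3 and 15.5 CPM in germ and 27.9, 30.8 and 37.2 CPM in somatic cells (log2 fold change -1.29), while the ranges of the BMP receptor Bmpr1a overlapped (16.2, 20.1 and 27.4 CPM and 24.1, 29.5 and 35.0 CPM, log2 fold change -0.53). Smad5, a BMP-type Smad, was at 8.72, 11.04 and 16.9 CPM in germ and 35.7, 44.8 and 57.6 CPM in somatic cells (log2 fold change -1.97). The shared Smad4 was at 25.2, 32.5 and 44.5 CPM and 40.8, 55.7 and 79.4 CPM (log2 fold change -0.83), and Smad7 at 48.4, 59.1 and 82.1 CPM and 51.5, 73.2 and 148 CPM (log2 fold change -0.31), both with ranges that overlap. The call of Smad7 was lost without XY +KTS KO replicate 2 (log2 fold change -0.22, adjusted p = 0.0793).

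Twsg1, a modulator of BMP binding, was at 4.16, 6.62 and 8.73 CPM in germ and 18.3, 22.2 and 31.5 CPM in somatic cells (log2 fold change -1.81). Id2 was at 8.43, 17.9 and 43.8 CPM in germ and 68.0, 111 and 255 CPM in somatic cells (log2 fold change -2.69), without overlap. Id1 overlapped, at 20.6, 43.5 and 151 CPM and 46.9, 89.6 and 128 CPM (log2 fold change -0.86), and its call was lost without the library block (-0.57). Smad6, by contrast, was higher in germ cells in 12 of 12 libraries (0.88), and Bmp7 in 11 of 12 (0.86). Id3 and Bmp4 were not called between the classes.

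**Figure D5:**
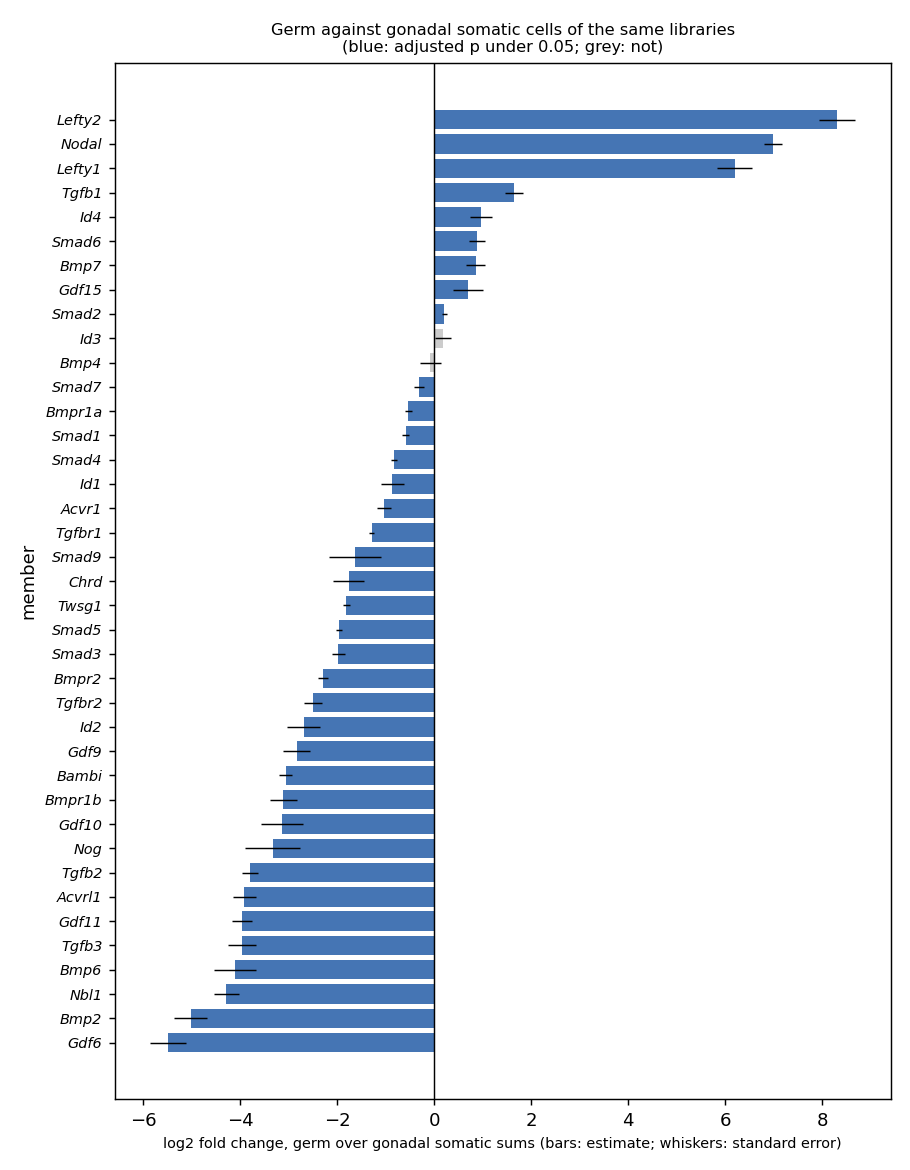
Log2 fold change of germ over gonadal somatic sums of the same libraries for the 39 members tested; bars are edgeR estimates, whiskers their standard errors, blue bars have an adjusted p under 0.05 and the 2 grey bars (Id3 and Bmp4) do not. Lefty2, Nodal and Lefty1 stand at the top and Gdf6 at the bottom.

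The other genes of the pathway, 54 found from a list of receptors, modulators, targets and further ligands, gave 9 of 45 called in XX -KTS KO (8 higher), 13 of 45 in XY -KTS KO (6 higher), 4 of 45 in XX +KTS KO (4 higher), 10 of 45 in XY +KTS KO (4 higher) and 13 of 43 between the WT sexes (11 higher in XY). Over all genes 16.6%, 23.7%, 5.13%, 12.7% and 13.5% were called in these comparisons. Acvr1c, the type I receptor ALK7 for Nodal and activins, was at 2.70 and 2.72 CPM in the XX WT libraries and 19.8 and 12.7 CPM in XY WT (log2 fold change 2.58 at adjusted p = 0.000859 on the log2 scale). It rose in XX -KTS KO to 13.4 and 22.9 CPM (log2 fold change 2.74 at adjusted p = 0.000541) and fell in XY +KTS KO to 3.20 and 2.61 CPM (log2 fold change -2.49 at adjusted p = 0.00129), so the -KTS KO libraries of both sexes (13.4 to 24.1 CPM) overlapped XY WT, and the +KTS KO libraries of both sexes reached at most 4.04 CPM. Pmepa1 moved in the same directions in these comparisons, with log2 fold changes of 1.74 (adjusted p = 0.000747) in XX -KTS KO and -1.19 (adjusted p = 0.00635) in XY +KTS KO, and it also rose in XX +KTS KO (log2 fold change 0.95 at adjusted p = 0.0282), where Acvr1c was not called (log2 fold change 0.52 at adjusted p = 0.401). Skil, a repressor of Smad transcription, rose in XX +KTS KO (log2 fold change 1.85 at adjusted p = 0.00226). Ccn2, a target of TGF-beta, was at 49.4 and 33.0 CPM in XY WT and 4.80 to 14.2 CPM elsewhere, falling in both XY mutants (log2 fold changes -1.79 and -1.93). Vasn, which traps TGF-beta, and Tgif1, a Smad corepressor, fell in XY -KTS KO (log2 fold changes -1.62 and -0.47), while Tgif2 and Ltbp1 rose (0.68 and 0.65 on the same scale). Ltbp1, which binds latent TGF-beta, also rose in XY +KTS KO (1.06), and the matrix protein Dcn rose in XX -KTS KO (1.07). XY WT was above XX WT in Ccn2 (2.48) and Pmepa1 (1.95) and below it in Tgif2 (-0.58). The difference of effects between the sexes, XY minus XX, was called for Acvr1c, Pmepa1 and Skil in -KTS KO (-2.37, -1.97 and -1.47) and in +KTS KO (-3.00, -2.13 and -1.96). For these other genes no values without a library or in interstitial-like cells alone are given. How firmly their calls held is therefore not shown.

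In germ cells the list gave 1 of 39 called in each XX mutant (Pmepa1) and 2 of 38 between the WT sexes (Pmepa1 and Msx2). Msx2, a homeobox target of BMP signals, was at 62.7 and 40 CPM in the XX WT libraries and 13.4 and 18.5 CPM in XY WT germ cells (log2 fold change -1.69 at adjusted p = 0.0404 on the log2 scale). Against somatic cells, germ cells were higher in Gdf3, a ligand of the Nodal branch (log2 fold change 8.75), Msx2 (3.54) and Tgif2 (1.33), and lower in the matrix proteins Dcn (-5.86), Bgn (-5.69) and Tgfbi (-5.33). The Nodal co-receptors Tdgf1 and Cfc1 and the Nodal-branch factor Foxh1, named after their values were seen, were likewise higher in germ cells (log2 fold changes 8.0, 6.67 and 7.80). They were picked from the list, and its receptors of the activin type are not given. Of 43 genes of the list tested here, 41 were called (95.3%), 15 higher and 26 lower in germ cells. Over all genes 87.4% were called (40.8% higher and 46.6% lower).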

How the data were processed

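Samples were grouped by the sex, genotype and replicate in the labels, 6 groups of 2 libraries. The authors deposited UMI counts per gene and cell barcode (the submitters' processing notes name Cell Ranger 6.0 and mm10), not normalized and restricted to barcodes called as cells, and no removal of free RNA is given in the sources used here. The study's methods name a doublet removal per matrix with DoubletFinder, ahead of the filter on genes and mitochondrial content. The deposited matrices still hold barcodes that fail that filter, and whether doublets had left them is not stated in the sources used here. Library totals were 108111924 to 147968666 UMIs. Barcodes that held 1000 genes or more, and no more than 10% of UMIs from mitochondrial genes, were retained (83513 of 103730). The barcodes with the highest Scrublet scores, 0.8% per 1000 barcodes of a library, were then dropped as doublets (4839), since the automatic threshold marked under 0.5% in 4 of 12 libraries.

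Cells were clustered with Seurat 5.3.0 and sctransform 0.4.2 on 3000 genes, from which 104 genes were left out, and clusters were named from marker lists. Left out were the members, the other genes of the pathway and the sex-linked Xist, Ddx3y, Uty, Kdm5d and Eif2s3y, as far as they were detected. A class needed at least 3 detected markers, and other thresholds of this naming were set after the data were seen. UMIs were summed per library and class and tested with edgeR 4.0.16 (TMM factors, filterByExpr, quasi-likelihood test, 1 fit over 12 libraries, Benjamini-Hochberg adjustment over all genes tested, threshold 0.05, R 4.3.3). Comparisons of the sexes used autosomal genes. Germ and somatic sums were fitted together with the library as a block, where the median over all genes was -0.12. CPM uses the TMM library sizes. Counts of UMIs at the 3' end have no length term, so levels are not compared between genes. On simulated counts for XX -KTS KO against XX WT, edgeR recovered 79% of 4-fold and 41.4% of 2-fold changes in somatic and in germ cell sums. False calls were 4.14% and 5.9% of those made. The counts were drawn with edgeR's own dispersion, equal in all groups, and 200 genes changed. They do not cover libraries as uneven as some here or as many changed genes.

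The members and gene lists were chosen with earlier results of these data known. Values in every library are given for members called in a somatic comparison with a group mean of at least 5 CPM. Members called between germ and somatic cells with at least 20 CPM in the higher class are given by their lowest, median and highest library. For other pathway genes the rule was the 3 largest called changes in each direction with at least 20 CPM in a group. Other members are mostly given by counts and ranges. Some, such as Nog, Bmpr1b, Gdf15, Id1 in somatic sums and Smad3 in germ against somatic cells, have fuller values outside these rules. Further exceptions are said to have been named after their values were seen. The immediate early genes and the fit without clusters of few UMIs were also chosen after seeing the data. Alternatives were RLE size factors, no low-count filter, a replicate block, DESeq2 1.42.0, doublets retained, cells classed by their own marker UMIs, interstitial-like cells alone, cells thinned to 5000 UMIs, and each library left out. Files of barcodes and gene names were used as such.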

Additional observations from a re-analysis of the deposited data

Results flagged for a closer look

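For 11 pairs of member and genotype, the interaction term between genotype and sex passed the threshold in gonadal somatic sums (edgeR). All 11 were lost in interstitial-like cells alone, where values for Bmpr1b (3.14) and Acvr1 (-1.39 and -1.40) were about as large, and 64 of 88 fits without a library did not pass, those of Bmp5, Gdf11 and Gdf15 for -KTS KO without any 1 of the 8 libraries. The values are the change in XY minus the change in XX on the log2 scale. For -KTS KO they were 4.14 for Bmp5, 2.77 for Bmp2, 1.11 for Gdf11, -1.40 for Acvr1, -2.45 for Gdf15 and -5.04 for Lefty2. For +KTS KO they were 3.63 for Bmp5, 3.54 for Bmp2, 2.95 for Bmpr1b, -1.45 for Acvr1 and -3.12 for Gdf15. Single libraries far from the rest of their group were not tested, since each group has 2.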

How the results depend on the processing

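The values are numbers of members called by edgeR or the tool named. Every one of the 103 called pairs of member and comparison kept its direction in each alternative that tested it, except Bmp6 in XY +KTS KO, which turned in interstitial-like cells alone (log2 fold change 0.70, adjusted p = 0.419, edgeR). RLE size factors, the class taken from marker UMIs per cell and the removal of shallow clusters left all counts within 1.5 times. Interstitial-like cells alone gave 5 in XX -KTS KO against 10, 14 in XY -KTS KO against 18, 0 in XX +KTS KO against 4, 5 in XY +KTS KO against 8, 2 between the WT sexes against 8, and 0 in both tests of the difference between the sexes, with fewer cells summed. Over all genes the same setting gave 1081 calls against 2949, 3139 against 4204, 190 against 910, 1438 against 2257 and 289 against 2306 in these 5 comparisons, and 20 against 553 and 38 against 694 for the differences. At an unadjusted p under 0.05 the 3 counts of 0 were 7, 6 and 10 (edgeR). Doublets retained gave 13 in XY +KTS KO against 8, and 2797 of all genes against 2257. Without the low-count filter the germ cell counts were 6 in XX -KTS KO, 6 in XX +KTS KO, 4 in XY -KTS KO, 2 in XY +KTS KO and 8 between the WT sexes, and with DESeq2 they were 4, 5, 1, 1 and 6, against 2, 2, 0, 0 and 3. Over all genes these fits called 538, 267, 347, 351 and 709 and, with DESeq2, 122, 40, 33, 23 and 195, against 9, 10, 0, 0 and 42. The cause was not tested.

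The labels repeat replicate numbers 1 and 2 in each group but name no shared litter, batch or day, and deviations of same-numbered libraries correlated at -0.205 to 0.166 in somatic and -0.311 to 0.397 in germ cell sums, so the numbers were not taken as pairs. With the replicate block XX +KTS KO had 2 calls against 4, XX -KTS KO 8 against 10, XY -KTS KO 17, XY +KTS KO 7, the WT sexes 8, the differences between the sexes 4 and 4, and germ cells 2, 2 and 2 where 2, 2 and 3 were called. Over all genes the block gave 810, 2784, 3955, 2013 and 2087 in these 5 comparisons, 447 and 556 for the differences, and 6, 9 and 28 in germ cells. Without the library block, germ against somatic gave 35 calls against 37.

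Leaving out 1 library gave 1 to 6 in XX -KTS KO (1 without XX WT replicate 1, and 4, 6 and 4 without XX -KTS KO replicate 1, XX -KTS KO replicate 2 and XX WT replicate 2), 9 to 13 in XY -KTS KO (9 without either XY -KTS KO library and 10 without XY WT replicate 2) and 0 to 1 in XX +KTS KO (any of the 4 libraries). It gave 1 to 9 in XY +KTS KO (1 without XY WT replicate 1 and 4 without XY WT replicate 2) and 5 to 8 between the WT sexes (5 without XX WT replicate 2 or XY WT replicate 1). The difference between the sexes gave 0 to 5 for -KTS KO (5 without XY WT replicate 2, otherwise 0 or 1) and 0 to 6 for +KTS KO (0 without XY WT replicate 1, 1 without XX +KTS KO replicate 2 or XX WT replicate 2, 3 without XX +KTS KO replicate 1 or XX WT replicate 1). In germ cells it gave 0 to 2 in XX -KTS KO (0 without XX WT replicate 1, 1 without XX WT replicate 2 or XX -KTS KO replicate 2), 1 to 2 in XX +KTS KO (1 without either XX WT library or XX +KTS KO replicate 1), 1 to 2 between the WT sexes (1 without either XX WT library) and 0 in both XY mutants. Where a fit without a library called 0 members, 2 to 13 had an unadjusted p under 0.05 (edgeR). Germ against somatic gave 36 to 38. Over all genes, leaving out 1 library gave 1164 to 1495 in XX -KTS KO (1164 without XX WT replicate 1), 2143 to 2683 in XY -KTS KO, 139 to 315 in XX +KTS KO, 737 to 3060 in XY +KTS KO (737 without XY WT replicate 1), 782 to 1892 between the WT sexes, 103 to 718 and 172 to 1518 for the differences, and in germ cells 0 to 9, 1 to 8 and 1 to 23 in XX -KTS KO, XX +KTS KO and between the WT sexes and 0 to 1 in both XY mutants. Of 192 somatic values with a library left out, 100 no longer passed the threshold, where a group then had 1 library that is assumed to vary like the rest.

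With 2 libraries per group, changes of 2-fold were often missed on simulated counts, and members under 1 CPM rest on few UMIs, so a member without a call is not shown to be unchanged.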
